A study of Mus musculus with 6 samples.

Results

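The genes described here are 8 mouse Toll-like receptors (Tlr1, Tlr2, Tlr3, Tlr4, Tlr6, Tlr7, Tlr8 and Tlr13), the co-receptor Cd14 and the adaptor Myd88, 10 genes of the 17512 in the count table. They were taken by symbol, and all 10 passed the filter on low counts that left 14773 genes to test. The RNA came from 6 lines of pMEFs (primary mouse embryonic fibroblasts), connective-tissue cells grown from mid-gestation embryos of the C57bl6 background after the internal organs were taken out. The HAT1 WT group held lines 36, 47 and 78, with the Hat1 gene intact. The HAT1 KO group held lines 33, 41 and 72, labelled as knocked out for it, and neither group had a treatment or a time course. HAT1 puts acetyl groups on new histone H4 on its way into chromatin, and the study asked whether chromatin that closes without HAT1 does so because transcription is lost.

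Toll-like receptors are single-pass membrane proteins that bind parts of microbes, or of damaged cells, with a horseshoe of leucine-rich repeats. Receptors for lipids and lipoproteins sit mainly at the cell surface, and receptors for nucleic acids sit in endosomes, where the chaperone UNC93B1 delivers them. A TIR domain on the inner side then recruits MYD88 or TRIF, which leads through kinases to NF-kB and interferon regulatory factors. Macrophages carry most of the family, while fibroblasts are known to use mainly the receptors for lipoproteins, lipopolysaccharide and double-stranded RNA.

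The 6 libraries held between 67720628 and 98786746 counts. Hat1, the targeted gene, stood at 17.45, 23.0 and 20.1 CPM (counts relative to the library size after TMM scaling) in WT lines 36, 47 and 78 and at 10.2, 10.0 and 10.3 CPM in KO lines 33, 41 and 72. Its level in the KO lines was therefore lower in every line but not absent, at 50.45% of the WT mean. KO line 72 stood apart, with a mean Pearson correlation of 0.973 with the other lines over log2 CPM of the tested genes, while the other lines had 0.985 to 0.988. Y-linked genes summed to 182.8 and 159.5 CPM in WT lines 36 and 47, to 2.335 CPM in WT line 78, and to at most 0.118 CPM in the KO lines, so sex-linked expression was not balanced between the genotypes. Sequencing lane was not balanced either, with WT line 36 alone in lane 8, and both are given below beside the results they touch.

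All 10 genes had a lower fitted level in HAT1 KO, where 48.5% of all tested genes did, with a median log2 fold change of -0.56 against 0.0085. Past an adjusted p of 0.05 in the edgeR quasi-likelihood test, 2 of the 10 were lower, Tlr8 and Tlr13, where 0.528% of all tested genes were. At the study's own thresholds, which join a 1.5-fold difference to an unadjusted p under 0.05, Tlr1, Tlr7, Tlr8 and Tlr13 were lower, 4 of 10 against 4.62% of all genes. At an unadjusted p under 0.05 alone, Tlr2 and Tlr4 joined them, 6 of 10 against 8.77%, and with lane in the model Tlr1 and Tlr4 did not keep that p. The same 6 had every KO line below every WT line, which held for 12.4% of all genes. None of the 10 was higher past adjustment (0% of all genes), past the study's thresholds (1.5%) or at an unadjusted p under 0.05 (5.88%), and none lay above every WT line in all KO lines (9.59%). The other 4 genes, Tlr3, Tlr6, Cd14 and Myd88, had overlapping lines. In bulk RNA, fewer cells of a type and less RNA per cell cannot be told apart. The labels do not say that the lines came from separate embryos, so the p-values measure only the spread between lines.

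**Figure D1:**
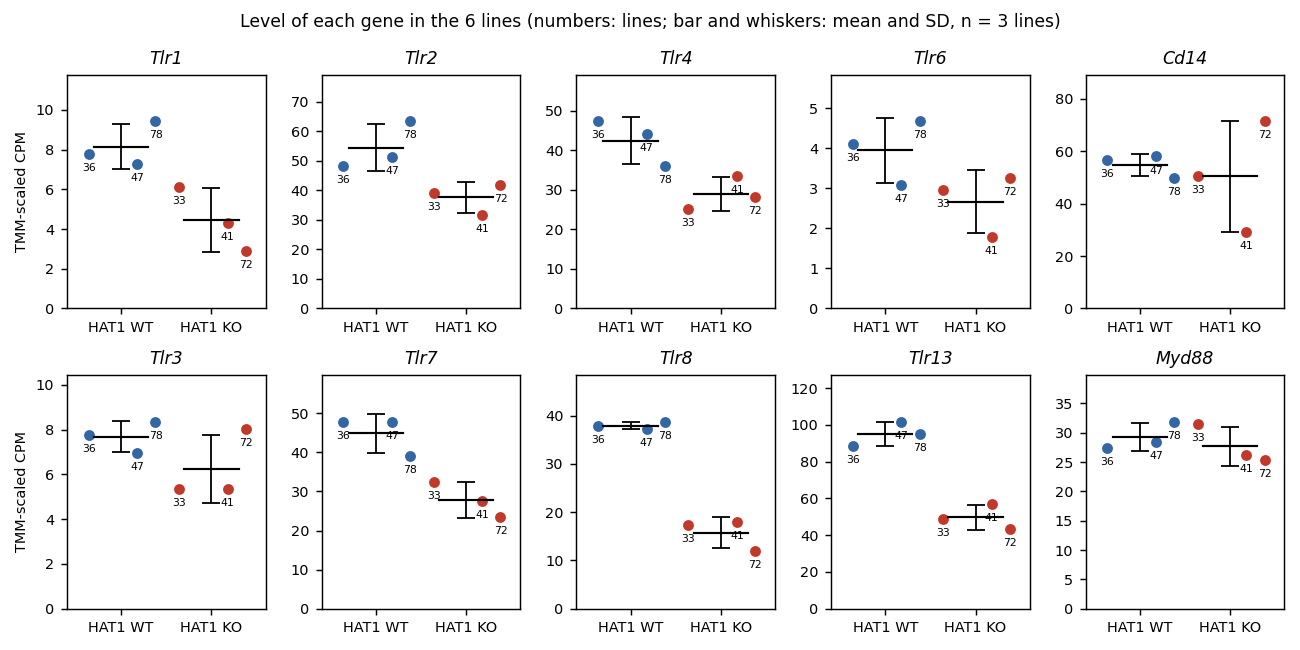
Level of the 10 genes in each line, with TMM-scaled CPM on a linear vertical axis that starts at 0 and differs between panels. Points are lines (blue HAT1 WT, red HAT1 KO, with the line number below), and bar and whiskers are the mean and SD of 3 lines. Tlr8 and Tlr13 show the widest gaps between the genotypes, from 37.2 down to 17.9 CPM and from 88.4 down to 56.97 CPM, while the KO points of Cd14 lie on both sides of the WT points.

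Among the receptors of endosomes, Tlr13, which mice have and humans lack, detects bacterial ribosomal RNA. WT lines 36, 47 and 78 had 88.4, 101.8 and 95.1 CPM of it, against 48.6, 56.97 and 43.5 CPM in KO lines 33, 41 and 72. The means were 95.1 ± 6.67 and 49.7 ± 6.82 CPM (SD, n = 3 each), so the KO lines held 52.3% of the WT level and no line of one genotype reached the other. Tlr13 fell by 0.94 on the log2 scale (SE 0.11, 95% interval -1.21 to -0.66), with adjusted p = 0.0376 in edgeR, the 55th smallest p of the 14773 genes.

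Tlr8, whose human counterpart senses breakdown products of single-stranded RNA, had the largest fold change of the 10 genes. WT lines 36, 47 and 78 were nearly equal at 37.9, 37.2 and 38.75 CPM, and KO lines 33, 41 and 72 stood at 17.3, 17.9 and 12.0 CPM. The means were 37.9 ± 0.781 and 15.7 ± 3.25 CPM (SD, n = 3 each), with the KO lines at 41.5%. The highest KO line held 48.1% of the lowest WT line. Tlr8 fell by 1.27 on the log2 scale (SE 0.16, 95% interval -1.65 to -0.88), with adjusted p = 0.0413 in edgeR. Leaving out KO line 72, the line with the lowest value, kept both Tlr8 and Tlr13 past the adjusted threshold, and leaving out any other line lost it for both, with adjusted p up to 0.23, while the log2 fold changes stayed between -1.37 and -1.10 for Tlr8 and between -1.04 and -0.84 for Tlr13. With lane as a term, no gene of the 10 passed the adjusted threshold, although Tlr8 and Tlr13 kept log2 fold changes of -1.25 and -0.97 and an unadjusted p under 0.05 (adjusted p = 0.529 for each, edgeR).

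Tlr7, the neighbour of Tlr8 and a receptor for single-stranded RNA, showed 47.85, 47.7 and 39.05 CPM in WT lines 36, 47 and 78 against 32.4, 27.5 and 23.35 CPM in KO lines 33, 41 and 72. The lowest WT line lay above the highest KO line, and the KO mean was 61.8% of the WT mean. The log2 fold change was -0.69 (SE 0.15, 95% interval -1.04 to -0.34), past the study's thresholds but not past adjustment (adjusted p = 0.122, edgeR). Tlr3, the receptor for double-stranded RNA that signals through TRIF and not MYD88, stood at 7.74, 6.97 and 8.36 CPM in the WT lines. KO lines 33 and 41 had 5.36 and 5.355 CPM, below every WT line, while KO line 72 with 8.01 CPM lay within the WT range. Its log2 fold change of -0.30 (SE 0.19, 95% interval -0.77 to 0.17) did not pass (adjusted p = 0.527, edgeR), and without KO line 72 it was -0.51, with an unadjusted p under 0.05.

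Promoter sequence was also described, and whether it bears on the levels was not tested. The stretches below are from RefSeq (GRCm38.p6), upstream of the listed transcription start and cut where a GENCODE exon of the gene begins, and run 5′ to 3′ on the gene's own strand. They are shown for Tlr13 and Tlr8, which passed the adjusted threshold, for Tlr2, a surface receptor with a smaller difference, and for Myd88, whose lines overlapped. Capitals mark a match to 1 of 3 motifs searched on both strands. These were GAGGAA (the core bound by PU.1, a factor of myeloid cells), GAAA followed after any 2 bases by GAAA (the element of interferon regulatory factors) and the NF-kB consensus. The positions are chrX:106143025-106143203 for Tlr13 on the plus strand, and, on the minus strand, chrX:167264330-167264579 for Tlr8, chr3:83841768-83841858 for Tlr2 and chr9:119340042-119340268 for Myd88.
Tlr13: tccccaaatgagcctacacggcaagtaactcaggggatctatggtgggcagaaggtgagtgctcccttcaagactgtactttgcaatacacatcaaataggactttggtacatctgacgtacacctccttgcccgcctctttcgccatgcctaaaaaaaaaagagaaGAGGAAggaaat
Tlr8: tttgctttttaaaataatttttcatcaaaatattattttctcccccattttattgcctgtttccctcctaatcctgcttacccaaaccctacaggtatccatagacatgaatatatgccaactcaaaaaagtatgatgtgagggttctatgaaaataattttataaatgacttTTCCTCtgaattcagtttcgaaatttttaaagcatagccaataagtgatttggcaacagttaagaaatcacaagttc
Tlr2: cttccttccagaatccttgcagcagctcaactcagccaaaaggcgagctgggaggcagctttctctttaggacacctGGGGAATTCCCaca
Myd88: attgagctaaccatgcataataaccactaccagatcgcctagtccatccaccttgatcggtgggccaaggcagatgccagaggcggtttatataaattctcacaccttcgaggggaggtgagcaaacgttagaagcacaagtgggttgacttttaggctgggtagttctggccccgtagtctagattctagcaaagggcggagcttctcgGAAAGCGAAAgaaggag

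In the 250 bases upstream of the start, GAGGAA occurred in 23.3% of the 32851 mouse promoters, the interferon element in 2.98% and the NF-kB consensus in 3.9%. Tlr13 held GAGGAA beginning at -83 and Tlr8 held its reverse complement beginning at -77. Tlr2 held the NF-kB consensus, in overlapping matches, and Myd88 held the interferon element beginning at -40. Of the promoters not printed, 1 of 2 of Tlr1 held GAGGAA at -23, and 1 of 2 of Tlr6 held the interferon element in overlapping matches. That of Tlr3 held the NF-kB consensus at -211, in a window whose upstream end a GENCODE exon of Tlr3 reaches. The windows of these Tlr3 and Tlr6 matches and of Myd88 lie inside the annotated spans of their genes, downstream of the farthest annotated start. The promoters of Tlr4, Tlr7 and Cd14 were not searched or printed. These matches are descriptions of letters in a window.

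At the cell surface, Tlr2 is the shared partner that pairs with Tlr1 for triacylated and with Tlr6 for diacylated bacterial lipoproteins. Tlr2 stood at 48.2, 51.4 and 63.3 CPM in WT lines 36, 47 and 78 and at 39.1, 31.75 and 41.9 CPM in KO lines 33, 41 and 72. The groups did not overlap, and the KO mean was 69.2% of the WT mean, 37.6 ± 5.24 against 54.3 ± 7.96 CPM (SD, n = 3 each). The log2 fold change was -0.53 (SE 0.14, 95% interval -0.88 to -0.18), with adjusted p = 0.197 in edgeR.

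Tlr1 was less abundant, at 7.77, 7.27 and 9.43 CPM in the WT lines and 6.11, 4.32 and 2.90 CPM in KO lines 33, 41 and 72. Its groups did not overlap, yet the KO lines differed from each other by 2.10-fold, the widest spread of the 8 receptors in either genotype. The log2 fold change of -0.88 (SE 0.28, 95% interval -1.56 to -0.19) passed the study's thresholds but not adjustment (adjusted p = 0.248, edgeR). It no longer passed them without WT line 78 (-0.75), without KO line 41 (-0.85), with lane in the model (-0.88), or in the lines with few Y-linked counts, WT line 78 and the 3 KO lines (-1.07).

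Tlr6 had the fewest counts of the 10 genes, from 120 in KO line 41 to 463 in WT line 78. WT lines 36, 47 and 78 had 4.12, 3.08 and 4.68 CPM, against 2.96, 1.775 and 3.27 CPM in KO lines 33, 41 and 72, so KO line 72 overlapped WT line 47. The log2 fold change was -0.57 (SE 0.29, 95% interval -1.26 to 0.13), about as large as that of Tlr2 and Tlr4, but it did not pass (adjusted p = 0.427, edgeR). Tlr1 and Tlr6 are near-identical in places. Of the 3332 distinct 50-base words of Tlr1 transcripts, 454 also occur in Tlr6, so short reads from these stretches may be assigned to either gene.

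Tlr4, the receptor for bacterial lipopolysaccharide, stood at 47.3, 44.05 and 35.95 CPM in WT lines 36, 47 and 78 against 25.1, 33.4 and 28.25 CPM in KO lines 33, 41 and 72. WT line 78 and KO line 41 came close to each other, with the highest KO line at 92.9% of the lowest WT line. The means were 42.4 ± 5.84 and 28.9 ± 4.19 CPM (SD, n = 3 each). The log2 fold change was -0.55 (SE 0.15, 95% interval -0.91 to -0.20), with adjusted p = 0.188 in edgeR. The unadjusted p was no longer under 0.05 with lane in the model (-0.46) or in the lines with few Y-linked counts (-0.30).

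Cd14, the lipid-anchored protein that hands lipopolysaccharide to Tlr4, was uneven among the KO lines. WT lines 36, 47 and 78 had 56.4, 58.0 and 49.8 CPM, against 50.4, 29.2 and 71.4 CPM in KO lines 33, 41 and 72. KO line 41 was below every WT line and KO line 72 above every one, a spread of 2.44-fold among the KO lines against 1.16-fold among the WT lines. The log2 fold change was -0.12 (SE 0.30, 95% interval -0.85 to 0.61), with adjusted p = 0.886 in edgeR, an interval wide enough to hold the differences of Tlr2, Tlr4 and Tlr7. Without KO line 41 the value changed sign, to 0.16. Per length, Cd14 stood at 3.83, 4.22 and 4.45 times Tlr4 in WT lines 36, 47 and 78 and at 6.44, 2.81 and 8.11 times in KO lines 33, 41 and 72.

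Myd88, the adaptor of every Toll-like receptor but Tlr3, was the gene of the 10 whose means lay closest together. It stood at 27.4, 28.5 and 31.9 CPM in WT lines 36, 47 and 78 and at 31.5, 26.2 and 25.4 CPM in KO lines 33, 41 and 72, so the groups overlapped. The KO mean was 94.7% of the WT mean, and the log2 fold change was -0.08 (SE 0.11, 95% interval -0.35 to 0.19), with adjusted p = 0.794 in edgeR. This interval lies above the fitted values of all receptors but Tlr3. The ratio of Myd88 to Tlr13, both per length, was 0.518, 0.468 and 0.561 in the WT lines and 1.08, 0.769 and 0.976 in KO lines 33, 41 and 72. Of the exon bases of Myd88, 11.3% are shared with Acaa1a on the opposite strand, as are 7.32% of those of Tlr3 with Gm45542. The library kit does not mark strand, so reads in these stretches cannot be told apart.

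**Figure D2:**
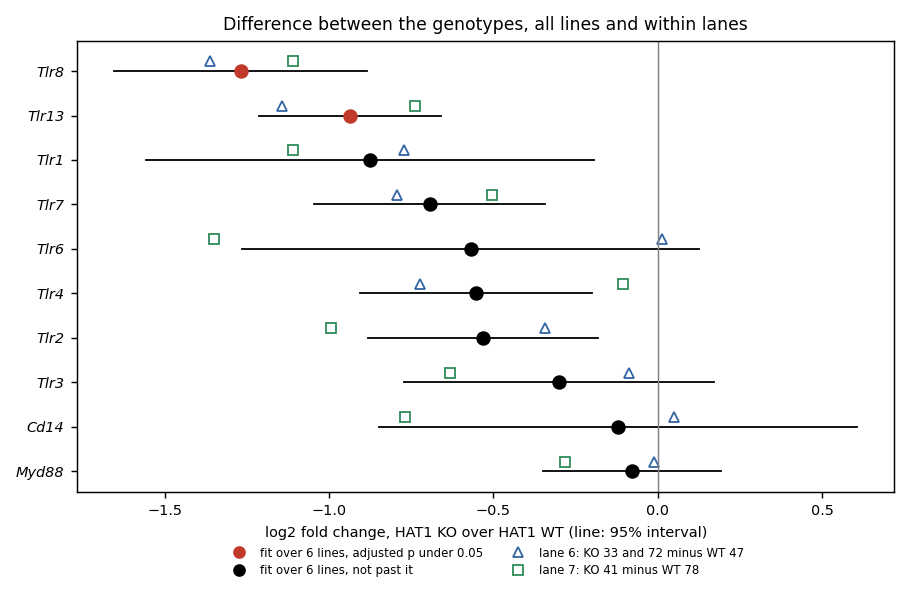
Log2 fold change of HAT1 KO over HAT1 WT for the 10 genes. Circles are the fit over 6 lines with its 95% interval (red where the adjusted p is under 0.05), triangles the difference within lane 6 and squares that within lane 7. Tlr8 (-1.27) and Tlr13 (-0.94) lie farthest to the left with both lanes on the same side, and Tlr6 and Cd14 have their lanes on opposite sides of 0.

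Within lanes, differences of mean log2 CPM were taken for lane 6 (KO lines 33 and 72 against WT line 47) and lane 7 (KO line 41 against WT line 78), while lane 8 held WT line 36 only. Each lane has a lone WT line, so these values, taken after adding 0.1 CPM, have no test. On the log2 scale, Tlr8 differed by -1.36 and -1.11, Tlr13 by -1.14 and -0.74, and Tlr1 by -0.77 and -1.11 in lanes 6 and 7. Tlr2 differed by -0.34 and -0.99 and Tlr7 by -0.79 and -0.50. Tlr4 differed by -0.72 in lane 6 and -0.11 in lane 7, Tlr3 by -0.088 and -0.63 and Myd88 by -0.01 and -0.28. Tlr6 differed by 0.01 and -1.35 and Cd14 by 0.05 and -0.77. Tlr3, Myd88, Tlr6 and Cd14 were thus close to level in lane 6 and lower in lane 7. The share of all tested genes that were lower in both lanes was not taken. In the lines with few Y-linked counts only, WT line 78 against the 3 KO lines, the log2 fold changes were -1.28 for Tlr8, -1.07 for Tlr1, -0.92 for Tlr13, -0.74 for Tlr2, -0.48 for Tlr7 and -0.30 for Tlr4, with the lone WT line taken to vary like the KO lines. Tlr8, Tlr13 and Tlr2 kept an unadjusted p under 0.05 there, and Tlr1, Tlr7 and Tlr4 did not. The part of sex-linked expression in the results was not tested beyond this.

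Levels of different genes were compared per kilobase of exon (CPM per kb, exons of GENCODE M21). Cd14 led in HAT1 WT at 31.6 ± 2.49 CPM per kb, followed by Tlr13 at 22.1 ± 1.55, Tlr2 at 18.02 ± 2.64, Myd88 at 11.36 ± 0.909, Tlr7 at 11.0 ± 1.24, Tlr8 at 10.6 ± 0.218 and Tlr4 at 7.64 ± 1.05 CPM per kb (SD, n = 3 each). The rarest were Tlr1, Tlr3 and Tlr6 at 2.44 ± 0.338, 1.48 ± 0.134 and 1.06 ± 0.218 CPM per kb. Within this order, the lines of Tlr13 and Tlr2, of Myd88 and Tlr7, and of Tlr7 and Tlr8 overlapped, and the other neighbours did not. In HAT1 KO the lines of Tlr13 overlapped those of Tlr2, and so did the pairs Tlr2 and Myd88, Tlr8 and Tlr4, and Tlr1 and Tlr3. Tlr13, Tlr7 and Tlr8, the receptors for RNA with a lower fitted level in HAT1 KO by over 1.5-fold, were thus among the more abundant of the family in these cultures. By WT level, Tlr13 ranked at percentile 85.6 of the tested genes and Tlr6 at percentile 27.5, on the CPM scale without length.

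**Figure D3:**
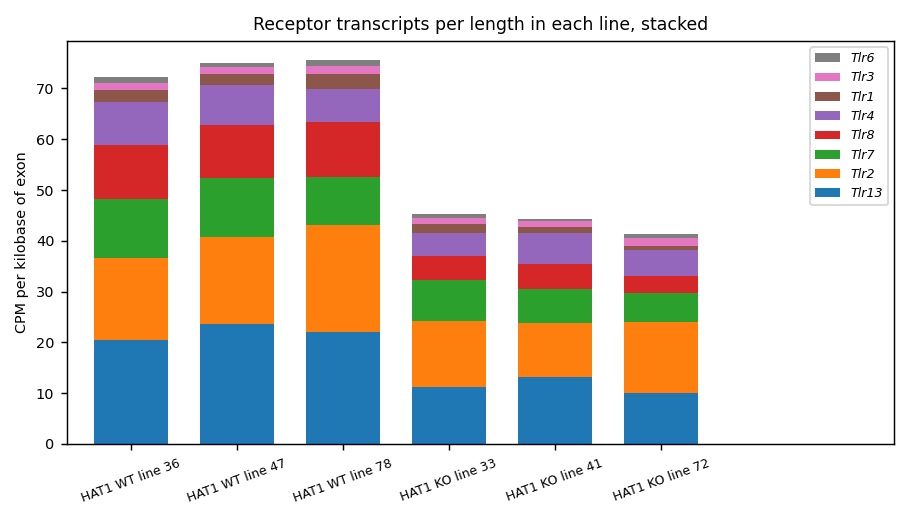
Stacked levels of the 8 receptors in each line, in CPM per kilobase of exon. The stacks reach 72.3, 75.0 and 75.6 in WT lines 36, 47 and 78 and 45.2, 44.3 and 41.4 in KO lines 33, 41 and 72, with Tlr13 and Tlr2 as the largest blocks in every line.

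Added up per length, the 8 receptors gave 74.3 ± 1.79 CPM per kb in HAT1 WT and 43.65 ± 1.97 CPM per kb in HAT1 KO (SD, n = 3 each). The share of Tlr8 in this sum was 14.6%, 13.8% and 14.3% in WT lines 36, 47 and 78 and 10.7%, 11.3% and 8.08% in KO lines 33, 41 and 72, without overlap. The share of Tlr2 was 22.2%, 22.7% and 27.8% in WT and 28.7%, 23.8% and 33.6% in KO. Tlr13 came first in every WT line and in KO line 41, and Tlr2 came first in KO lines 33 and 72. Tlr1 was 6th in every line but KO line 72, where it was 8th.

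In the genome, Tlr8 (chrX:167242696-167264329) and Tlr7 (chrX:167304929-167330558) lie side by side on the minus strand of GRCm38, 40.6 kb apart. Per length, Tlr8 stood at 0.901, 0.887 and 1.13 times Tlr7 in WT lines 36, 47 and 78 and at 0.608, 0.741 and 0.585 times in KO lines 33, 41 and 72. The neighbours thus differed in how far their levels lay apart between the genotypes, and the ratio did not overlap. Tlr13 (chrX:106143204-106160493, plus strand) lies elsewhere on the X chromosome, and its ratio to Tlr7 was 1.75, 2.02 and 2.31 in HAT1 WT against 1.42, 1.97 and 1.77 in HAT1 KO, with overlap. All 3 X-linked receptors were lower past the study's thresholds (4.62% of all tested genes), with a median log2 fold change of -0.94. The 487 tested genes of chromosome X had a median of -0.0033, and 10.7% of them were lower at an unadjusted p under 0.05, against 8.77% of all genes. All 3 receptors were lower at that p too. The share of chromosome X genes past the study's thresholds was not taken. Xist, the transcript that silences an X chromosome, stood at 1.246, 14.6 and 298.3 CPM in WT lines 36, 47 and 78 and at 145.6 to 191.1 CPM in the KO lines.

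Tlr1 (chr5:64924679-64933563) and Tlr6 (chr5:64952031-64960097) form a second pair on the minus strand, 18.5 kb apart. The ratio of Tlr1 to Tlr6 per length was 2.10, 2.63 and 2.245 in the WT lines and 2.295 and 2.71 in KO lines 33 and 41, but 0.990 in KO line 72. The remaining genes are dispersed, with Tlr2 at chr3:83836272-83841767, Tlr3 at chr8:45395665-45411080, Tlr4 at chr4:66827584-66930284, Myd88 at chr9:119335934-119341411 and Cd14 on chromosome 18. All 10 are annotated as protein coding.

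The rest of the pathway was followed through lists of 93 genes, of which 85 were tested. At an unadjusted p under 0.05, 25 were lower (8.77% of all tested genes were) and 0 higher (5.88%). Of the 85, 15 were lower at the study's thresholds (4.62% of all genes), and 2, Unc93b1 and Irf5, past the adjusted threshold (0.528%). The median log2 fold change of the 85 was -0.18 against 0.0085 over all genes, and 65 were lower in sign (48.5% of all genes). Tlr5 and Tlr9, the other receptors tested, had log2 fold changes of -0.36 (SE 0.29) and -0.67 (SE 0.31) and did not pass (adjusted p = 0.616 and 0.39, edgeR). Tlr12 had too few counts to be tested.

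Of the 8 chaperones and trafficking factors, 3 were lower past the study's thresholds, Unc93b1, Lgmn and Ctsb, where 4.62% of all tested genes were. Unc93b1, which carries the nucleic acid receptors to endosomes, stood at 121.7, 121.0 and 116.0 CPM in WT lines 36, 47 and 78 and at 79.9, 70.6 and 67.0 CPM in KO lines 33, 41 and 72. It fell by 0.72 on the log2 scale (SE 0.08), with adjusted p = 0.0357 in edgeR, and its means of 119.6 ± 3.15 and 72.5 ± 6.63 CPM put the KO lines at 60.6% of WT. That adjusted call ended with lane in the model (adjusted p = 0.529), in the lines with few Y-linked counts (0.67) and when any line but KO line 72 was left out (0.0942 to 0.23), while the log2 fold change stayed between -0.80 and -0.66. Lgmn, an endosomal protease that trims such receptors, differed by -0.77 (SE 0.13), with adjusted p = 0.0809. The other 5 did not pass.

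Among 6 co-receptors and ligand-binding proteins, Cd180, a relative of the receptors that lacks the TIR domain, and Cd36, a scavenger receptor that assists Tlr2 and Tlr6, were lower past the study's thresholds (4.62% of all genes). Cd36 stood at 42.2, 52.6 and 62.7 CPM in the WT lines and at 22.4, 13.9 and 8.26 CPM in KO lines 33, 41 and 72, a log2 fold change of -1.82 (SE 0.37, adjusted p = 0.113, edgeR). Cd180 differed by -0.81 (SE 0.15, adjusted p = 0.102). Ly96, the partner without which Tlr4 cannot bind lipopolysaccharide, was rare, at 3.37 ± 0.133 and 3.04 ± 0.404 CPM (SD, n = 3 each), with a log2 fold change of -0.15 (SE 0.16).

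Among the 5 other adaptors, Pik3ap1, which links the receptors to PI3 kinase, and Ticam2, which joins Tlr4 to TRIF, were lower past the study's thresholds (4.62% of all genes). Pik3ap1 had means of 100.5 ± 8.32 and 50.85 ± 9.70 CPM (SD, n = 3 each) and a log2 fold change of -0.98 (SE 0.15, adjusted p = 0.0642, edgeR). Tirap, the bridge between Tlr2 or Tlr4 and MYD88, and Ticam1, which encodes TRIF, did not pass, with log2 fold changes of 0.04 (SE 0.13) and -0.11 (SE 0.12). Tirap and Ticam1, like Myd88, had overlapping groups.

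Of the 16 kinases and ubiquitin ligases, 3 were lower at an unadjusted p under 0.05, where 8.77% of all tested genes were, and 0 of these by 1.5-fold, where 4.62% were, so a count of 0 among 16 is near that background. Irak4, the kinase that MYD88 assembles, had a log2 fold change of -0.42 (SE 0.09, adjusted p = 0.122, edgeR), Tbk1, which activates IRF3, of -0.24 (SE 0.07) and Traf6, the ligase below the IRAK kinases, of -0.08 (SE 0.07). Of the 9 transcription factors, 4 were lower at that p (8.77% of all genes). Irf5, which acts below MYD88, fell by 0.57 on the log2 scale (SE 0.07, adjusted p = 0.0472, edgeR). Its adjusted p was 0.0508 with DESeq2 size factors, 0.0627 without a filter, 0.56 with lane, 0.67 in the lines with few Y-linked counts and 0.0635 to 0.23 when 1 line was left out, so that call held in 4 of 14 alternatives. Irf8, a factor of macrophage and dendritic cell development, differed by -0.90 (SE 0.16, adjusted p = 0.0801, edgeR). It was the only 1 of the 9 past the study's thresholds (4.62% of all genes). The 10 inhibitors had 4 lower at an unadjusted p under 0.05 (8.77% of all genes), among them Nfkbie at -0.69 (SE 0.19) and Tnfaip3, which encodes A20, at -0.44 (SE 0.11). Of the 10, only Nfkbie passed the study's thresholds (4.62% of all genes).

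**Figure D4:**
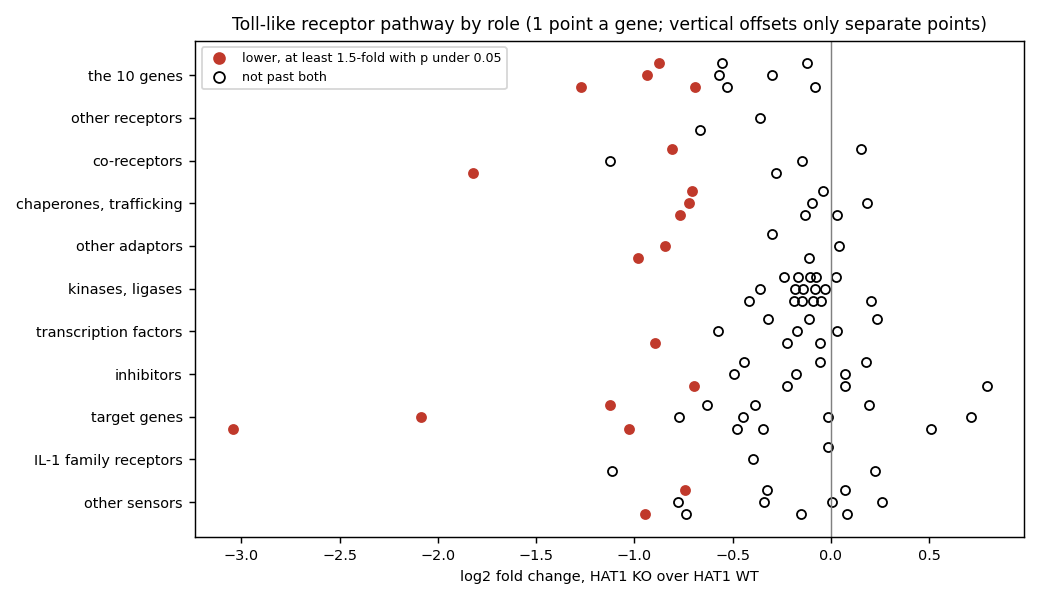
Log2 fold change of HAT1 KO over HAT1 WT for the 10 genes and the 85 tested pathway genes by role, 1 point a gene. Filled red points are lower by at least 1.5-fold with an unadjusted p under 0.05. Co-receptors, chaperones, adaptors, transcription factors, inhibitors, target genes and other sensors each hold at least 1 red point. The other receptors, the 16 kinases and ligases and the IL-1 family receptors hold 0, where 4.62% of all genes are lower past these thresholds. No list holds a higher gene past these thresholds.

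Of 14 tested genes that the pathway is known to switch on, 5 were lower at an unadjusted p under 0.05, where 8.77% of all tested genes were. Il1b, which encodes interleukin 1 beta, stood at 0.915, 0.919 and 0.930 CPM in the WT lines and at 0.337, 0.178 and 0.130 CPM in KO lines 33, 41 and 72, a low level in all of them. Il1rn, the antagonist of the interleukin 1 receptor, was uneven among WT lines at 161.8, 50.1 and 25.7 CPM and stood at 12.1, 10.1 and 6.66 CPM in the KO lines, with a log2 fold change of -3.04 (SE 0.71, adjusted p = 0.150, edgeR). Without WT line 36 the log2 fold change of Il1rn was -1.98. Cxcl2 and Ccl3 were also lower past the study's thresholds, at -1.12 (SE 0.39) and -1.03 (SE 0.33). With Il1b and Il1rn these made 4 of the 14, where 4.62% of all genes were lower past them. Nfkbiz passed only the unadjusted p, at -0.48 (SE 0.16). Tnf, Il6 and Ccl2 did not pass. Of 11 other innate sensors, Aim2, which detects DNA in the cytosol, and Clec7a, which binds fungal glucan, were lower past the study's thresholds (4.62% of all genes), at -0.74 (SE 0.15) and -0.95 (SE 0.21). The 4 tested receptors of the interleukin 1 family did not pass, with Il1r1 at -0.40 (SE 0.31) and Il1r2 at -1.11 (SE 1.02).

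The labelled cell type was checked against marker genes. All 8 fibroblast markers were tested, with summed levels of 58299 to 66566 CPM in HAT1 WT and 41854 to 75262 CPM in HAT1 KO, and 1 of them, Thy1, was lower at an unadjusted p under 0.05 (8.77% of all genes). Macrophage and monocyte markers were present as well. All 18 listed were tested, and 17 of them, all but Cx3cr1, were lower past the study's thresholds (4.62% of all tested genes) with no overlap between the genotypes (12.4%), 9 past an adjusted p of 0.05 (0.528%). Summed, they came to 7260, 7667 and 6859 CPM in WT lines 36, 47 and 78. In KO lines 33, 41 and 72 the sums were 4117, 4231 and 3320 CPM, a mean of 53.6% of WT. Without the marker Lyz2, the KO mean was 56.1% of WT. The list was chosen with earlier results of these data known, so no p-value is given for the sums. Csf1r, the macrophage growth factor receptor, went from 593 ± 22.4 to 354 ± 22.1 CPM and Spi1, which encodes PU.1, from 58.2 to 35.2 CPM.

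**Figure D5:**
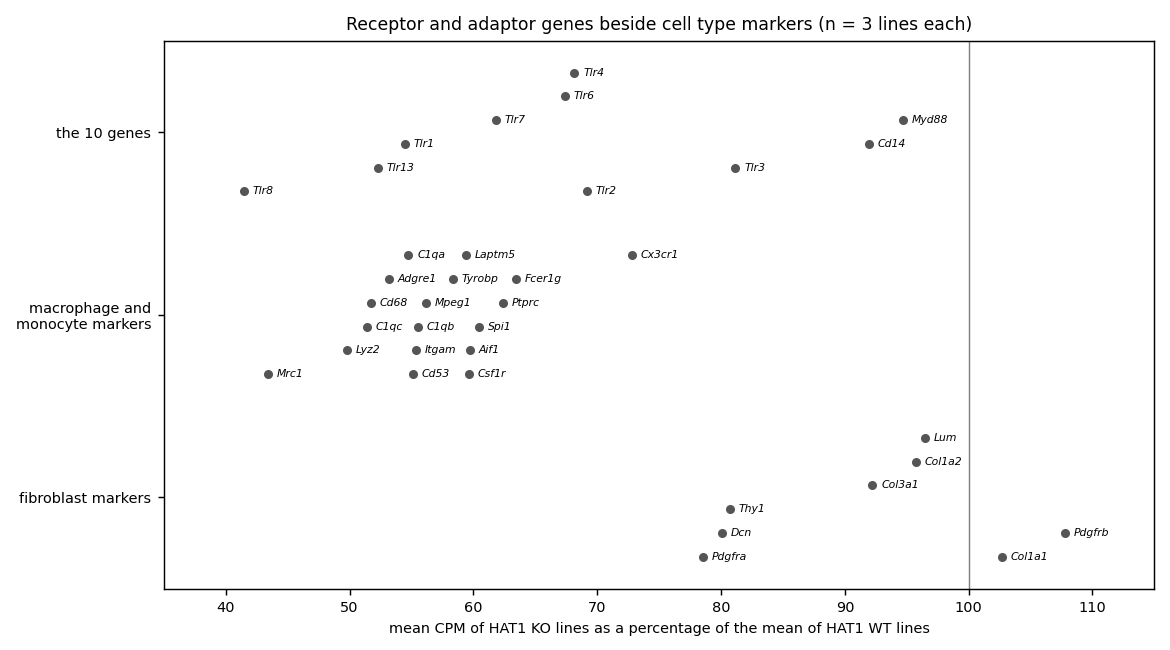
Mean level in HAT1 KO as a percentage of the HAT1 WT mean (TMM-scaled CPM, 3 lines each) for the 10 genes, 18 macrophage and monocyte markers and 8 fibroblast markers, 1 labelled point a gene, with vertical offsets only to separate the points. The macrophage and monocyte markers lie between 43.4% and 72.8%, a range that holds Tlr1, Tlr2, Tlr4, Tlr6, Tlr7 and Tlr13. Its top is Cx3cr1 alone, and Tlr2, Tlr4 and Tlr6 lie above the next marker, Fcer1g at 63.4%. Tlr8 at 41.5% lies below the range, and Tlr3, Cd14 and Myd88 lie above it, at percentages that the fibroblast markers also span. The points show means without their spread, and the KO lines of Cd14 ran from 29.2 to 71.4 CPM.

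Set beside these markers, the KO level as a percentage of WT ran from 43.4% to 72.8% over the 18 macrophage and monocyte genes, with a median of 55.8%, and from 41.5% to 94.7% over the 10 genes, with a median of 67.8%. The 6 genes Tlr1, Tlr2, Tlr4, Tlr6, Tlr7 and Tlr13 lay inside the marker range. Its upper end was Cx3cr1 alone, and the next highest marker was Fcer1g at 63.4%. Tlr2 at 69.2%, Tlr4 at 68.2% and Tlr6 at 67.4% lay between Fcer1g and Cx3cr1, above all the other markers. Tlr8 lay just below it, and Tlr3 at 81.2%, Cd14 at 91.9% and Myd88 at 94.7% lay above it. How far the level of macrophages in the cultures enters the results was not tested. Other blood lists were near 0, with neutrophil markers summing to at most 0.337 CPM in any line (2 of 7 in the table), lymphocyte markers to at most 0.657 CPM (5 of 8) and mast cell markers to at most 0.449 CPM (2 of 4). Dendritic cell markers (2 of 4) summed to between 1.70 and 4.07 CPM, and none passed a threshold. Endothelial markers summed to 13.2 to 14.2 CPM in HAT1 WT and 10.5 to 14.6 CPM in HAT1 KO. Of the 5 tested, 2 were lower at an unadjusted p under 0.05 (8.77% of all genes) and 4 were lower in sign (48.5%). Erythroid markers reached at most 1.12 CPM (1 of 5 in the table) and epithelial markers at most 2.14 CPM (4 of 4), with none past a threshold.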

How the data were processed

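RNA-seq had been carried out on 6 pMEF lines, 3 HAT1 WT and 3 HAT1 KO, grouped by the genotype in the labels. The authors deposited raw read counts per gene, not normalized, for 17512 genes. The aligner, counter and use of strand are not given in the sources used here. The submitters' processing notes name edgeR and the mm10 build. Further deposited columns hold a comparison of the genotypes by the authors (log2 fold change, log2 mean CPM, F score, p-value and q-value), not used here. Library preparation was with a kit that does not mark strand.

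Counts were tested in edgeR 4.0.16 (R 4.3.3) with filterByExpr defaults, TMM scaling, and glmQLFit and glmQLFTest on genotype, with two-sided p-values adjusted by Benjamini and Hochberg over 14773 genes. The approximate SE of a log2 fold change is its absolute value over the root of F, and its 95% interval uses the t quantile of the fit. At 67720628 or more counts per library, the variation between lines (common dispersion 0.0747) sets the precision except in rare genes. No library pair held identical values (0 pairs). The test was run on simulated data first. The 10 genes and all lists were chosen with earlier results of these data known. Genes named beyond them were Hat1, the genes with the 2 smallest p-values of each pathway list, a few key members, and those past adjustment. Ctsb, Thy1, Cx3cr1, Fcer1g, Lyz2, Csf1r, Spi1, Tnf, Il6, Ccl2, Cxcl2, Ccl3 and Nfkbiz were named after their values were seen. Positions and exon lengths are of GENCODE M21 (GRCm38), matched by identifier. Alternatives used DESeq2 1.42.0, limma 3.58.1 voom, other scalings and filters, lane, and fewer lines.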

Additional observations from a re-analysis of the deposited data

How the results depend on the processing

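Of the 2 genes past an adjusted p of 0.05, Tlr8 and Tlr13, 0 remained without a filter on low counts, with lane in the model and in the lines with few Y-linked counts only. DESeq2 called 5 (Tlr2, Tlr4, Tlr7, Tlr8 and Tlr13), and across the fits that left out 1 line the number ran from 0 to 2, with 2 without HAT1 KO line 72 only. Over all genes, the 78 lower calls became 46 without a filter, 647 in DESeq2, 263 in voom, 2 with lane and 0 in the lines with few Y-linked counts (1126 genes of either direction at an unadjusted p under 0.05), and ran from 0 to 71 when 1 line was left out. They were 0 without WT line 36, WT line 47 or KO line 33, where 1439, 1666 and 1859 genes had an unadjusted p under 0.05, 4 without WT line 78 and 5 without KO line 41. What causes these differences was not tested. Tlr8 and Tlr13 kept an unadjusted p under 0.05 in all 14 alternatives, with adjusted p from 7.3e-10 to 0.67 and from 3.3e-09 to 0.67.

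The 4 genes past the study's thresholds were 3 to 5 in number in every alternative, but not always the same genes. Tlr8 and Tlr13 were among them each time. Tlr1 was not among them with lane, in the lines with few Y-linked counts, without WT line 78 or without KO line 41, and Tlr7 was not in the lines with few Y-linked counts or without KO line 72. Tlr2 joined with lane, in the lines with few Y-linked counts, without WT line 36 and without KO line 72, and Tlr4 in voom, without WT line 78 and without KO line 41. Of the 140 values of the 10 genes under alternatives, 129 kept their direction and side of an unadjusted p of 0.05, 7 became weaker (Tlr1, Tlr4 and Tlr7), 2 stronger (Tlr3) and 2 changed sign. These were Cd14, at 0.16 without KO line 41 (from -0.45 to 0.16 over the fits that left out 1 line) and 0.029 in the lines with few Y-linked counts. Of the other named genes, Tirap changed sign to -0.012 without WT line 47, -0.0046 without KO line 72 (range to 0.15) and -0.14 in the lines with few Y-linked counts, and Ticam1 to 0.0010 without WT line 36 (range from -0.21) and 0.14 in those lines. Scaling by library size alone moved the mean level of each of the 10 genes by less than its SD, and another scaling moved the median over all genes from 0.0085 to at most 0.0168 (log2). No paired analysis was possible because the genotypes share no line numbers.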
